A study of Mus musculus with 16 samples.

Results

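The data described here are the 8 RNA-seq libraries of resting (M0) bone marrow–derived macrophages (BMDMs), 4 treated with VLX-1005 and 4 with vehicle, of 16 libraries in the whole series. They were chosen by their labels, as the M0 columns of the raw count table, and no measured value entered the choice. BMDMs are macrophages grown in culture from marrow cells. The other 8 libraries are from BMDMs stimulated to an M1-like state, with the same treatments.

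The M0 VLX-1005 group received 10 µM VLX-1005, an inhibitor of human 12-lipoxygenase (12-LOX), and the M0 vehicle group received 0.1% DMSO. Neither group received LPS or IFN-γ. All 8 cultures shared the rest: marrow of 8-week-old NOD.hALOX12 mice, 7 days of culture, 10 ng/mL M-CSF, and a start of treatment on day 7. In these mice human ALOX12 replaces the mouse Alox15 gene on the NOD background and is driven by the regulatory region of the mouse gene, so both groups lack Alox15. The sources used here do not give how long the M0 cultures stayed in VLX-1005 after the 1-hour pretreatment, and none says that the 4 libraries of a group came from separate mice or cultures. The p-values therefore cover only how much these libraries varied, and that variation may be technical. In bulk RNA, fewer cells of a type and less RNA per cell cannot be told apart.

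12-LOX adds oxygen to arachidonic acid and yields 12-HETE, a lipid mediator of inflammatory signaling. In mice the leukocyte-type enzyme is encoded by Alox15, and macrophages and pancreatic β cells are known to contain it. M0 macrophages, kept in M-CSF without stimulation, are the state before the cells are driven to inflammatory gene expression, and the M0 comparison asks what the inhibitor does to their transcripts when no stimulus is given.

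Each library was a column of counts over 48440 rows, a row being 1 annotated gene. Totals were 996126 to 1158095 counts in the M0 VLX-1005 libraries and 1060684 to 1128575 in the M0 vehicle libraries. In every M0 library, 96.3% to 96.8% of the counts lay in the 8460 rows that share exon positions with a gene of the other strand. The libraries are strand-specific, but the sources used here do not say how strand was set when reads were counted. Which gene of such a pair a count belongs to was not tested. A count is thus not shown to be expression of the gene that names its row. The row of Alox5ap, for example, had 12 counts over the 8 libraries, and the row Gm19719, on the strand opposite to it, had 5200 to 6373 counts in each. The rows of Ftl1, Lamp1 and Gnas, each opposite to a row among the most abundant, had 122, 96 and 49 counts over the 8 libraries. The row of Pltp, opposite to the abundant row Ctsa, had 17986, so the strands were not always so unequal. Rows are therefore named by the gene they carry, with the opposite gene beside it. The Alox15 row had 0 counts in all 8 libraries and the Alox12 row 5 counts in all. Both are rows of mouse genes, and reads were aligned to the mouse genome build mm10. Expression of the human ALOX12 gene that these mice carry was thus not measured by these rows.

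Counts of M0 VLX-1005 3, M0 vehicle 3 and, in part, M0 vehicle 2 stood apart from the other M0 libraries, mostly in rows rich in G and C bases. The stretches printed here compare such rows with others. Each is coding sequence of the opposite gene that lies within the row's exons (GRCm38, from GENCODE release 21 for mouse), read 5′ to 3′ on the strand of the opposite gene, with each CG pair in capitals. The first 4 are from GC-rich rows that were highest in these 3 libraries, and the last 4 from Gm10602 and Ctsa, which passed the test only in fits paired by library number, from the most abundant row, and from the row opposite to Alox5ap.
Gm45091, opposite Cebpa (chr7:35119555-35119605, plus strand): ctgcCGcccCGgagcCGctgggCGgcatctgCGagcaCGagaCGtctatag
Gm11175, opposite Jund (chr8:70699764-70699853, plus strand): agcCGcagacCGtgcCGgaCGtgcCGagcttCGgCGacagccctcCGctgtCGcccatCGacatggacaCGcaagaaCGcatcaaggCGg
Gm11973, opposite Purb (chr11:6475522-6475611, minus strand): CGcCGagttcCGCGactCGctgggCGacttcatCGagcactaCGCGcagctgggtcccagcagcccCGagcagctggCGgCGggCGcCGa
Rnd2, opposite Vat1 (chr11:101465776-101465865, minus strand): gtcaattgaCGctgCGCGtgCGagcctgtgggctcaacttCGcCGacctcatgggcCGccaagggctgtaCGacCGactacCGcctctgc
Gm10602, opposite Folr2 (chr7:101840275-101840364, minus strand): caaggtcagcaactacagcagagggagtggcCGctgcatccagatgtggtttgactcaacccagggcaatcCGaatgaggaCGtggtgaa
Ctsa, opposite Pltp (chr2:164839724-164839813, minus strand): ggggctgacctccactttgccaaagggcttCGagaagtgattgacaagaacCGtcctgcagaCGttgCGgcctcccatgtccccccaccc
Gm10252, opposite Ftl1 (chr7:45459536-45459625, minus strand): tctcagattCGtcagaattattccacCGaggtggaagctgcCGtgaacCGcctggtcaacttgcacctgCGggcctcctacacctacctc
Gm19719, opposite Alox5ap (chr5:149285344-149285425, plus strand): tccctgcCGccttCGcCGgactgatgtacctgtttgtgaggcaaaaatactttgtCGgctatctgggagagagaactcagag

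The stretches opposite Cebpa, Jund, Purb and Vat1 held 7, 13, 14 and 10 CG pairs, and those opposite Folr2, Pltp, Ftl1 and Alox5ap held 3, 4, 5 and 4. The part of Gm10602 that lies opposite to its other partner, Inppl1, gave a stretch of 74.4% GC with 9 CG pairs, so a row can hold stretches of both kinds. Over 931 rows of at least 50 counts with such a stretch, the median was 3.0 CG pairs per 90 bases, 21.6% had at least 7 and 91.6% at least 1. The GC content was 65.6% to 73.3% in the first 4, against a median of 56.5% over the 931. The first 4 were taken from rows already known to be GC-rich, so these contrasts follow from the choice and test nothing. The stretches of Gm45091 and Gm19719 had 51 and 82 bases, which gives 12.4 and 4.4 CG pairs per 90 bases, and the others had 90.

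No transcript passed the main test, which left libraries unpaired, for an effect of VLX-1005 in M0 BMDMs. Of 3453 rows tested, 0 (0.0%) had an adjusted p under 0.05 (edgeR quasi-likelihood test, Benjamini-Hochberg adjustment, smallest adjusted p = 1). DESeq2 and limma-voom also called 0. At an unadjusted p under 0.05 there were 103 rows (2.98%), of which 47 (1.36%) were higher and 56 (1.62%) lower with VLX-1005. This is fewer than the 5% of rows that a flat distribution of p-values gives. Rows were filtered over all 16 libraries, so 428 of the 3453 averaged under 10 counts in M0 and 20 had 0 counts in all 8 M0 libraries. When the M0 libraries were filtered and fitted alone, 84 of 3056 rows had an unadjusted p under 0.05 and 0 an adjusted p under 0.05. With libraries also paired by number, 162 rows had an unadjusted p under 0.05 and 3 an adjusted p under 0.05 (edgeR). That paired fit was chosen after seeing the data. The same pairing over all 16 libraries gave 0 calls. The 2 groups of 4 libraries did not overlap in 47 rows higher (1.36%) and 38 rows lower (1.1%) with VLX-1005.

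**Figure D1:**
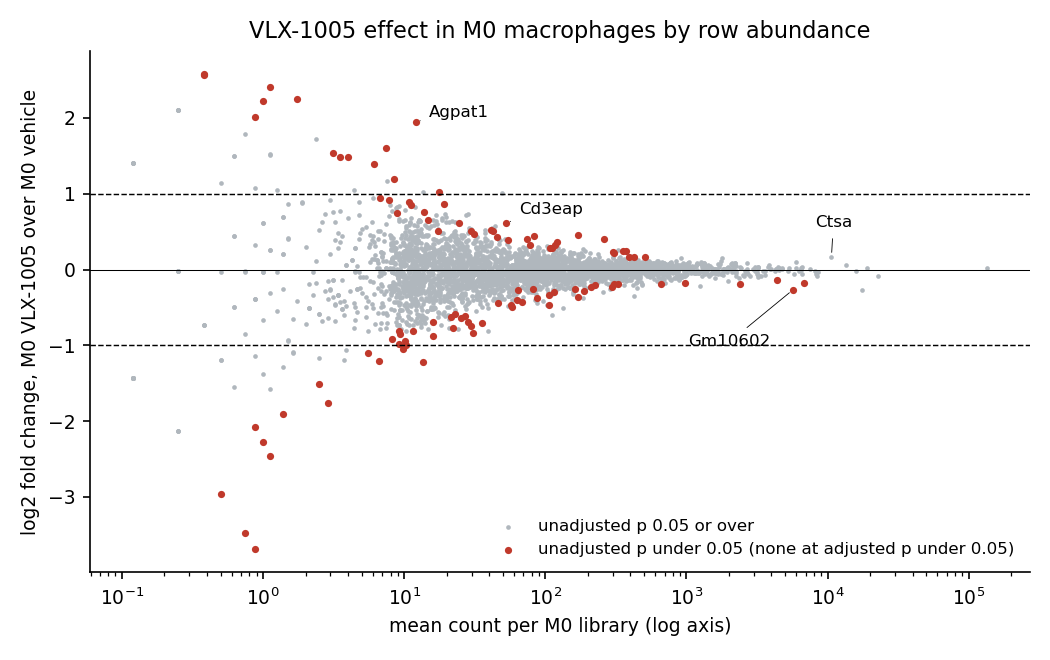
Log2 fold change of VLX-1005 over vehicle in M0 BMDMs (vertical axis) against the mean count per M0 library (horizontal log axis) for the rows tested with at least 1 M0 count; dashed lines mark 2-fold and red points an unadjusted p under 0.05. The scatter narrows with abundance, the 27 red points past 2-fold have means of 0.375 to 17.8 counts, and no row reached an adjusted p under 0.05.

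The size of effect that the data leave room for depended on how many counts a row had. Over all rows tested the median absolute log2 fold change was 0.11, and the 95% interval of the fold change lay inside 2-fold in either direction for 2605 rows (75.4%) and inside 1.5-fold for 1688 (48.9%). For the 839 rows averaging 200 counts or more, 836 (99.6%) lay inside 2-fold, 815 (97.1%) inside 1.5-fold and 81.2% inside 1.25-fold. The median absolute log2 fold change of these rows was 0.05. For the 929 rows of 50 to 200 counts, 97.7% lay inside 2-fold and 80.8% inside 1.5-fold. For the 1257 rows of 10 to 50 counts the shares were 64.8% and 9.71%, and for the 428 rows under 10 counts they were 10.7% and 0.0%. With the intervals widened so that they hold for all 3453 rows at once, 1260 rows (36.5%) stayed inside 2-fold, 797 of them with at least 200 counts. At this depth a change of 2-fold in a row under 10 counts was thus not detectable in most rows, and such rows are not shown to be unaffected.

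**Figure D2:**
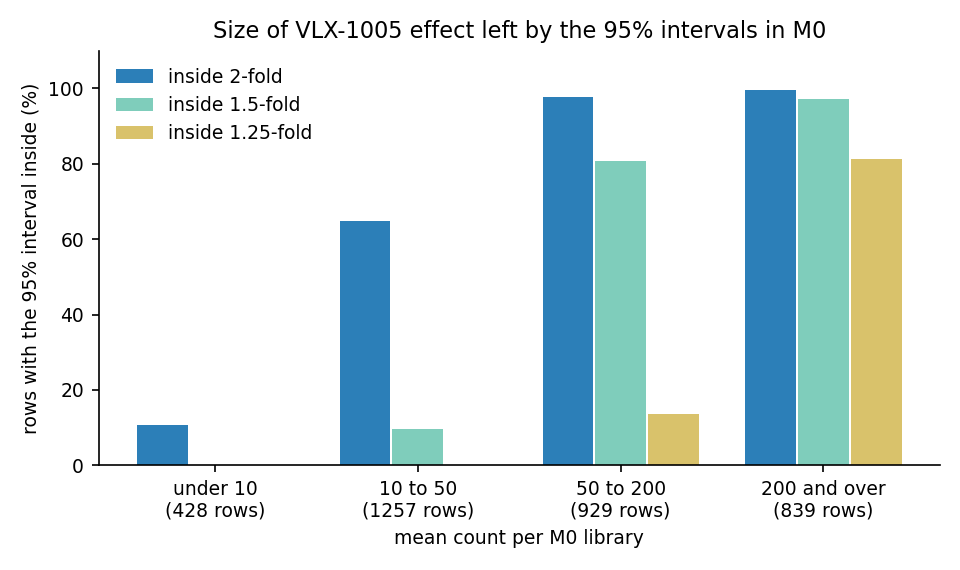
Share of rows (vertical axis, %) whose 95% interval of the VLX-1005 over vehicle fold change in M0 lies inside 2-fold, 1.5-fold or 1.25-fold, by mean count per M0 library (horizontal axis, with the number of rows). The share inside 2-fold is 10.7% under 10 counts and 99.6% at 200 counts and over.

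Most of the abundant transcripts had narrow limits. The row Gm10252, opposite to Ftl1, the ferritin light chain that stores iron, had 152556, 139574, 133325 and 124607 counts with VLX-1005, against 139481, 127771, 133409 and 127569 with vehicle. Its 2 groups overlapped, at 106484 ± 5451 CPM in the VLX-1005 libraries, against 104769 ± 5907 CPM in the vehicle libraries (SD, n = 4 each, CPM being counts scaled to a TMM-adjusted library of 1000000), and the interval of the fold change ran from 0.931 to 1.11. The row Grtp1, opposite to the lysosomal membrane gene Lamp1, had an interval of 0.926 to 1.06. The row Gm20721, opposite to Gnas, which encodes a stimulatory G protein subunit, had one of 0.872 to 1.02.

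Transcripts of the cell compartments that fill these libraries gave similar bounds. For the row mt-Nd6, opposite to mt-Nd5, a subunit of respiratory complex I, the interval of the fold change was 0.898 to 1.22. For the row 1810014B01Rik, opposite to the endoplasmic reticulum chaperone gene Hsp90b1, it was 0.913 to 1.05. For Fdft1, squalene synthase, opposite to the lysosomal protease gene Ctsb, it was 0.855 to 1.03. The row Gm26825, opposite to Gm15459, had 0.935 to 1.11. Each of these intervals held 1, no change. Abundance alone did not make a limit narrow, since the rRNA row CT010467.1, among the most abundant, had an interval of 0.619 to 1.10 and Ctsa one of 0.998 to 1.27.

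Among the rows with at least 10 counts, the smallest p belonged to Gm10602, which lies opposite to Folr2, a folate receptor of tissue macrophages, and to Inppl1, which encodes the lipid phosphatase SHIP2. Gm10602 (chromosome 7, 101836503 to 101842771, plus strand, GRCm38) had 5557, 4965, 5562 and 4651 counts with VLX-1005, against 6386, 5928, 6541 and 5590 with vehicle. All 4 VLX-1005 libraries were below all 4 vehicle libraries in CPM, at 4015 ± 247 and 4844 ± 313 CPM (SD, n = 4 each). The log2 fold change was -0.27 (SE 0.07, unadjusted p = 0.000839, adjusted p = 1, edgeR), with an interval of the fold change of 0.75 to 0.916.

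Ctsa, which encodes cathepsin A, lies opposite to Pltp, the phospholipid transfer protein gene, and to Neurl2. It had 13068, 11724, 10920 and 9968 counts with VLX-1005, against 11164, 9135, 9715 and 9491 with vehicle. Library 1 was the highest of each group, the groups overlapped, and the log2 fold change was 0.17 (SE 0.08, unadjusted p = 0.0539, adjusted p = 1, edgeR). The row of Pltp itself had 1734 ± 74.6 CPM in VLX-1005 and 1791 ± 93.5 CPM in vehicle libraries (SD, n = 4 each), with a log2 fold change of -0.05 (SE 0.07). Gm10602 and Ctsa reached an adjusted p under 0.05 only in fits of the M0 libraries alone that paired libraries by their number, which are given with the other alternatives in the closing section.

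**Figure D3:**
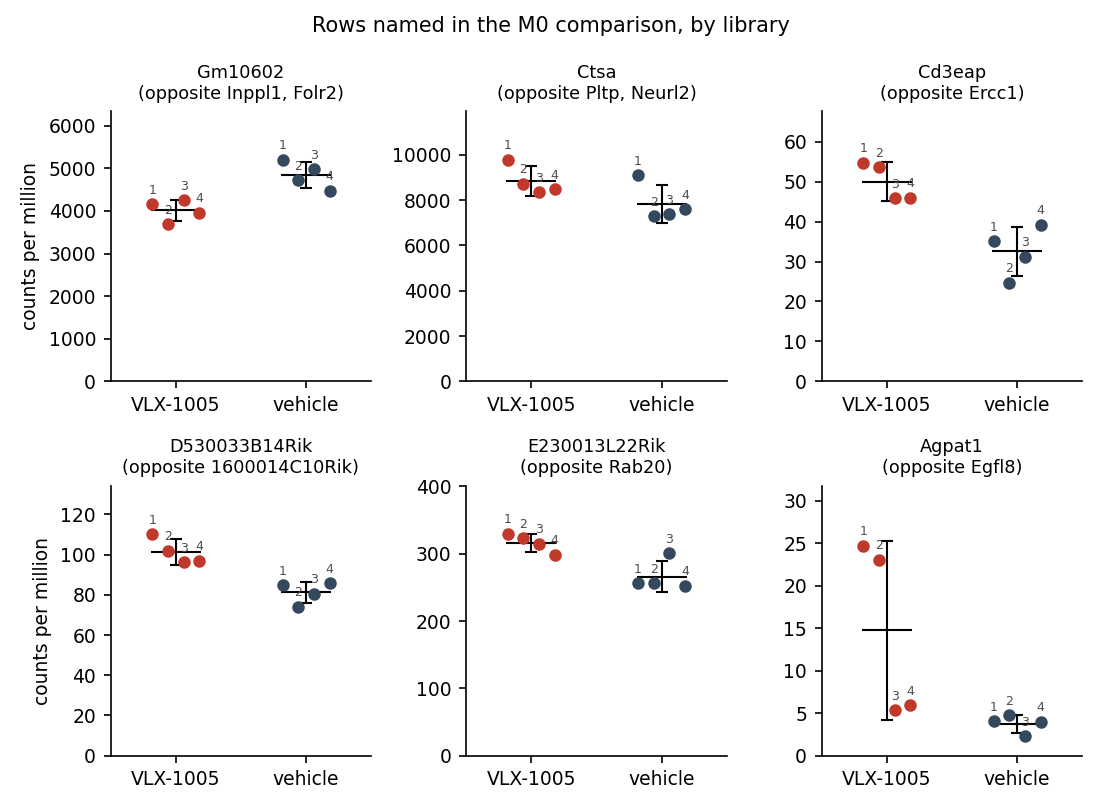
CPM (vertical axis from 0) in each M0 library, numbered 1 to 4, with VLX-1005 on the left in red and vehicle on the right in blue; black lines are the mean and SD of 4 libraries. Gm10602 is lower and Cd3eap and D530033B14Rik are higher in all 4 VLX-1005 libraries, the groups overlap in Ctsa and E230013L22Rik, and VLX-1005 1 and 2 lie far above the other 6 libraries in Agpat1.

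Rows of fewer counts with small p-values had wider intervals. Cd3eap, opposite to the DNA repair gene Ercc1 and itself encoding an RNA polymerase I subunit, had 73, 72, 60 and 54 counts with VLX-1005, against 43, 31, 41 and 49 with vehicle. Its groups did not overlap, and the interval of the fold change was 1.18 to 2.01 (log2 fold change 0.62, SE 0.19, unadjusted p = 0.00298, adjusted p = 1, edgeR). D530033B14Rik, opposite to 1600014C10Rik, had 147, 137, 126 and 114 counts with VLX-1005, against 104, 93, 106 and 107 with vehicle, also without overlap in CPM, with an interval of 1.09 to 1.42. E230013L22Rik, opposite to Rab20, a small GTPase of phagosomes, had 316 ± 13.3 CPM in VLX-1005 and 266 ± 22.95 CPM in vehicle libraries (SD, n = 4 each), and its groups overlapped through vehicle 3.

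Shisa5, a p53-induced gene of the endoplasmic reticulum with no opposite exon, had 14, 15, 16 and 13 counts with VLX-1005, against 7, 8, 7 and 9 with vehicle. All 4 VLX-1005 libraries were higher, and the interval of the fold change was 1.22 to 2.74. Snrnp200, a helicase of the spliceosome, had 11, 13, 12 and 10 counts with VLX-1005, against 14, 21, 22 and 26 with vehicle, without overlap in CPM, and Crybg2, opposite to the leukocyte antigen gene Cd52, had 24, 23, 19 and 14 with VLX-1005, against 29, 24, 33 and 36 with vehicle. The log2 fold changes were -0.88 (SE 0.30) for Snrnp200 and -0.64 (SE 0.22) for Crybg2, each with an adjusted p of 1 (edgeR).

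Past 2-fold with an unadjusted p under 0.05 there were 27 rows (0.782%), 14 higher and 13 lower with VLX-1005. The count was 3 with the M0 libraries filtered and fitted alone and 62 without VLX-1005 3. Their mean counts ran from 0.375 to 17.8 per library with a median of 2.5, only 3 of them had a mean of at least 10, and in 7 of the 27 the groups did not overlap. Agpat1, a lysophosphatidic acid acyltransferase gene opposite to Egfl8, had 33, 31, 7 and 7 counts with VLX-1005, against 5, 6, 3 and 5 with vehicle. VLX-1005 libraries 1 and 2 were far above all others, and libraries 3 and 4 were close to vehicle (log2 fold change 1.95, SE 0.61). Usp40, a deubiquitinase gene opposite to Dgkd, had 8, 6, 10 and 9 counts with VLX-1005, against 11, 17, 16 and 32 with vehicle (log2 fold change -1.22, SE 0.42).

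The other rows of this kind that are named here averaged under 10 counts per M0 library. The row of highest mean among the 27, at 17.8 counts, is not named. Fam102b had 3, 2, 5 and 2 counts with VLX-1005, against 0, 1, 0 and 1 with vehicle. Dlgap4, opposite to 4930405A21Rik, had 6, 5, 4 and 4 with VLX-1005, against 1, 1, 1 and 3 with vehicle, and 4931431B13Rik, opposite to the integrin gene Itgad, had 11, 11, 12 and 11 with VLX-1005, against 6, 0, 3 and 5 with vehicle. Tap1, a peptide transporter of antigen presentation opposite to Psmb9, had 13, 3, 4 and 4 counts with VLX-1005, against 0, 1, 2 and 5 with vehicle, so VLX-1005 1 was the highest of the 8 and vehicle 4 lay above the other 3 VLX-1005 libraries in CPM. Lower with VLX-1005 were Ifi203, an interferon-inducible gene (0, 0, 3 and 2 counts with VLX-1005, against 5, 2, 9 and 2 with vehicle), Nfe2l1, a transcription factor of proteasome genes (6, 1, 4 and 5 with VLX-1005, against 9, 8, 15 and 5 with vehicle), and Parp14 (3, 4, 4 and 3 with VLX-1005, against 2, 7, 11 and 10 with vehicle), each with overlapping groups. All had an adjusted p of 1 (edgeR).

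Transcripts of the lipoxygenase and cyclooxygenase pathway gave no call. Of 25 genes on the list, 2 had a tested row of their own and 4 a tested row opposite to them, with 0 calls, 0 rows at an unadjusted p under 0.05, and a median log2 fold change of 0.01 over the 4 opposite rows, against -0.01 over all rows tested. Gm19719, opposite to Alox5ap, which encodes the protein that presents arachidonic acid to 5-lipoxygenase, had 6373, 6187, 5200 and 5295 counts with VLX-1005, against 5881, 5915, 5409 and 6112 with vehicle. The groups overlapped and the interval of the fold change was 0.836 to 1.11. The row 1700071M16Rik, opposite to Pla2g7, a lipoprotein-associated phospholipase, had an interval of 0.938 to 1.17, and Gm43621, opposite to Ptgs1 (cyclooxygenase-1), one of 0.745 to 1.10. Gm26542, opposite to Ltc4s, leukotriene C4 synthase, had 0.845 to 1.47. Ptgs2 (cyclooxygenase-2) had 0 counts in all 8 libraries on its own row.

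Macrophage identity transcripts were abundant on some rows only. Of 34 genes on the list, 15 had a tested row of their own, 3 of them with at least 50 counts per M0 library. Another 5 tested rows lay opposite to genes of the list. The rows of Adgre1, Cd68, Itgam and Mertk had 166, 86, 71 and 22 counts summed over the 8 libraries. Cd163, a scavenger receptor, had 690, 769, 645 and 573 counts with VLX-1005, against 726, 869, 707 and 656 with vehicle, and its interval of the fold change was 0.764 to 1.02. The row of Csf1r, the M-CSF receptor, lies opposite to Hmgxb3. It had 281, 286, 259 and 257 counts with VLX-1005, against 259, 250, 255 and 253 with vehicle, with an interval of 0.913 to 1.19. Gm15655, opposite to the transcription factor gene Maf, had 1775 ± 254 CPM in VLX-1005 and 1911 ± 344 CPM in vehicle libraries (SD, n = 4 each). Of 15 rows of the list's genes, 0 were called, and 0 higher and 2 lower at an unadjusted p under 0.05, with a median log2 fold change of -0.22, against 1.36% higher, 1.62% lower and a median of -0.01 over all rows tested.

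Those with an unadjusted p under 0.05 were Cx3cr1, the fractalkine receptor, and Lyz2, lysozyme. Cx3cr1, opposite to Gm33858, had 25, 28, 29 and 27 counts with VLX-1005, against 45, 31, 64 and 35 with vehicle, without overlap in CPM (log2 fold change -0.71, SE 0.30). Lyz2 had 96, 76, 109 and 83 counts with VLX-1005, against 146, 94, 136 and 115 with vehicle, with overlapping groups (log2 fold change -0.46, SE 0.17). Both had an adjusted p of 1 (edgeR). The 5 rows opposite to identity genes had log2 fold changes of -0.35 to -0.01, the lowest being Gm45091, opposite to Cebpa, whose counts differed more between libraries than between groups.

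No row of the interferon-stimulated and inflammatory lists was called, but many of these rows had wide limits. On the type I interferon list, 2 of the 13 own rows had at least 50 counts and 2 an interval inside 2-fold. Their log2 fold changes ran from -1.43 to 2.11, so most of them are not shown to be unaffected. Of 13 own rows of the type I interferon list, 0 were called, 0 were higher and 1 lower at an unadjusted p under 0.05, against 2.98% of all rows in either direction. That row was Dtx3l, a ubiquitin ligase gene opposite to Parp9, with 88, 95, 119 and 77 counts with VLX-1005, against 113, 121, 133 and 99 with vehicle (log2 fold change -0.33, SE 0.12, unadjusted p = 0.00881, adjusted p = 1, edgeR). Parp9, on the other strand of the same locus, had 0.12 (SE 0.11), so the sign differed between the strands. Of the 6 rows opposite to genes of the list, 0 were called, 1 was lower at an unadjusted p under 0.05 (Dtx3l again) and 1 higher. The higher row was Gm13822, opposite to Oasl1, with 1, 3, 1 and 1 counts with VLX-1005, against 0, 1, 0 and 0 with vehicle. Chrnb2, opposite to Adar, an RNA-editing deaminase gene, had 891 ± 44.8 CPM in VLX-1005 and 869 ± 32.1 CPM in vehicle libraries (SD, n = 4 each) and an interval of the fold change of 0.945 to 1.11.

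Genes that the study names in its macrophage results had few counts on their own rows in M0. Summed over the 4 VLX-1005 libraries, Adar had 10 counts, Gigyf2 23, Mmp12 9, Ttll12 6 and Oas1e 0, and summed over the 4 vehicle libraries Adar had 4, Gigyf2 25, Mmp12 16, Ttll12 5 and Oas1e 0. None of these 5 passed the filter. The rows of Adar, Gigyf2 and Mmp12 lie opposite to Chrnb2, Kcnj13 and Mmp1b. Cd274, which encodes PD-L1, had 2 counts with VLX-1005 and 6 with vehicle (log2 fold change -1.37, SE 1.06, adjusted p = 1, edgeR). At these counts no difference was detectable. The 5 tested rows of the immune checkpoint list, Cd274 among them, had log2 fold changes of -2.46 to -0.09. Of these, 0 had at least 50 counts and 0 an interval inside 2-fold.

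The inflammatory and NF-κB list had 10 own rows and 9 opposite rows tested, with 0 calls and 0 at an unadjusted p under 0.05. Its most abundant row, Card14, opposite to the lysosomal sulfatase gene Sgsh, had 1278 ± 37.4 CPM in VLX-1005 and 1334 ± 46.6 CPM in vehicle libraries (SD, n = 4 each). On this list the interval lay inside 2-fold in 5 of 10 own rows and 6 of 9 opposite rows.

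Metabolic and stress transcripts had narrow limits on many abundant rows, and wider ones on many others. For redox and ferroptosis genes, 8 opposite rows had log2 fold changes of -0.21 to 0.21, all 8 inside 2-fold and 7 inside 1.5-fold. Of their 14 own rows, 1 had at least 50 counts, 7 lay inside 2-fold and 2 inside 1.5-fold. Gm15441, opposite to Txnip, which encodes a thioredoxin-interacting protein, had an interval of the fold change of 0.897 to 1.08. All 9 rows opposite to lysosome and phagocytosis genes and all 12 opposite to ribosomal protein genes lay inside 1.5-fold, with median log2 fold changes of -0.05 and 0.02. For glycolysis, Fam57b, opposite to aldolase A (Aldoa), had an interval of 0.986 to 1.16. The 9 own rows of that list had a median log2 fold change of -0.23, and 4 lay inside 2-fold. For sterol synthesis, Sqle, squalene epoxidase, had 139, 132, 153 and 127 counts with VLX-1005, against 179, 159, 143 and 156 with vehicle, with overlapping groups and an interval of 0.698 to 1.02. The 4 rows opposite to sterol synthesis genes had log2 fold changes of -0.42 to -0.07, with 4 inside 2-fold and 1 inside 1.5-fold. The cell cycle list had 8 own and 8 opposite rows with log2 fold changes of -0.17 to 0.20.

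Over all 19 pathway lists, 250 rows were tested, 0 were called, and 3 were higher and 8 lower at an unadjusted p under 0.05, which is 4.4% against 2.98% of all rows. The median log2 fold change was -0.02, and the interval lay inside 2-fold for 171 rows and inside 1.5-fold for 111. Markers of other cell types were checked on 7 tested rows, of which 1, the osteoclast gene Dcstamp, had 0 counts in every M0 library and 1 had an unadjusted p under 0.05. That row, Xcr1, a dendritic cell receptor, had 1, 3, 0 and 1 counts with VLX-1005, against 6, 2, 4 and 3 with vehicle. The T cell genes Cd247 and Foxp3 had log2 fold changes of -0.01 and 0.04, on rows that lie opposite to Pou2f1 and to Ccdc22. Natural killer, mast cell, megakaryocyte, fibroblast, endothelial and adipocyte markers had 0 tested rows on either strand.

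The effect of VLX-1005 was not shown to differ between M0 and M1-like BMDMs. In the test of the difference of the 2 effects, 0 of 3453 rows had an adjusted p under 0.05 (smallest adjusted p = 1, edgeR) and 148 (4.29%) an unadjusted p under 0.05. Over the 1768 rows with at least 50 counts per M0 library, the median absolute log2 fold change was 0.07 in M0 and 0.08 in M1. Inside 2-fold lay 98.6% of intervals in M0 and 93.6% in M1. These rows were chosen by their M0 counts, so the 2 states are not compared at like abundance. Gm38248, for example, averaged 0.0 CPM in the M1 VLX-1005 and 1.45 CPM in the M1 vehicle libraries. Gm10602 had -0.27 in M0 and 0.14 in M1 (unadjusted p of the difference = 0.000492, adjusted p = 1, edgeR).

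Many rows differed between libraries of the same group by more than counting error. For each row the squared deviations of the 4 counts from their share of the library sizes were divided by what counting error gives, so that counting alone yields a ratio near 1 and passes 2.60 in 5% of rows. In the VLX-1005 group 1108 of 3055 rows (36.3%) passed 2.60, with a median ratio of 1.84, and in the vehicle group 1195 of 3047 rows (39.2%) did, with a median of 1.92. A ratio over 20 was reached by 118 rows in the VLX-1005 group and 130 in the vehicle group. Of these, 97 were the same rows, which is 82.2% of the first list and 74.6% of the second. No pair of libraries in a group differed by as little as counting error, with 2.56 to 6.60 chi-square per degree of freedom.

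The largest spread ratio in both groups was that of CT010467.1, an rRNA row on chromosome 17 opposite to Gm42418. It had 11571, 20957, 17394 and 13909 counts in the VLX-1005 libraries, against 24750, 15644, 19396 and 15429 in the vehicle libraries. VLX-1005 1 was the lowest and vehicle 1 the highest of the 8, and the groups overlapped (log2 fold change -0.28, SE 0.20). Its spread ratio was 909 in the VLX-1005 group and 1107 in the vehicle group. Gm10252, the most abundant row, was also among the rows of largest spread ratio. It had 371 in the VLX-1005 group and 413 in the vehicle group at a GC content of 57.7%. At a given relative spread this ratio grows with the count. In the VLX-1005 group Gm10252 had 106484 ± 5451 CPM, while Gm45091, with a ratio of 432.5, had 289 ± 312 CPM (SD, n = 4 each).

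Gm45091, opposite to Cebpa, a transcription factor gene of myeloid cells, had 229, 176, 989 and 116 counts in the VLX-1005 libraries, against 126, 570, 1079 and 117 in the vehicle libraries. VLX-1005 3, vehicle 3 and vehicle 2 were high and the other 5 low. Gm11175, opposite to Jund, a subunit of the AP-1 transcription factor, had 1632, 1702, 3064 and 1121 with VLX-1005, against 1235, 2506, 3316 and 1130 with vehicle, and the same 3 libraries were the highest. The fold change between treatments had an interval of 0.358 to 1.73 for Gm45091 and 0.623 to 1.30 for Gm11175.

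The same 3 libraries were the highest in rows of quite different genes. Gm43474, opposite to the lysosomal histidine transporter gene Slc15a4, had 32, 35, 370 and 11 counts with VLX-1005, against 19, 165, 429 and 13 with vehicle. Gm11973, opposite to Purb, a single-stranded nucleic acid binding protein, had 27, 32, 147 and 7 with VLX-1005, against 25, 69, 164 and 15 with vehicle. Rnd2, a small GTPase gene opposite to Vat1, had 1743, 1378, 2777 and 1100 with VLX-1005, against 1198, 1993, 2819 and 1135 with vehicle. Basp1, with no opposite exon, had 185, 183, 593 and 132 counts with VLX-1005, against 162, 356, 587 and 115 with vehicle, so the pattern was also present outside the rows with a gene on the other strand. It was also seen in Cnbd2, opposite to Gm14252 and Scand1, and in 1810049J17Rik, opposite to the Golgi gene Golph3. Mgme1, opposite to the sorting nexin gene Snx5, and Gm9887, opposite to the GTPase gene Arf6, had it too. Not all such rows had a high GC value. The GC content was 49.6% in Cnbd2 and 56.4% in Basp1, against 74.4% in 1810049J17Rik, 72.8% in Mgme1 and 77.0% in Gm9887. The value of Cnbd2 was not taken over its overlap with Scand1, and that of Basp1 was taken over its whole longest transcript.

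**Figure D4:**
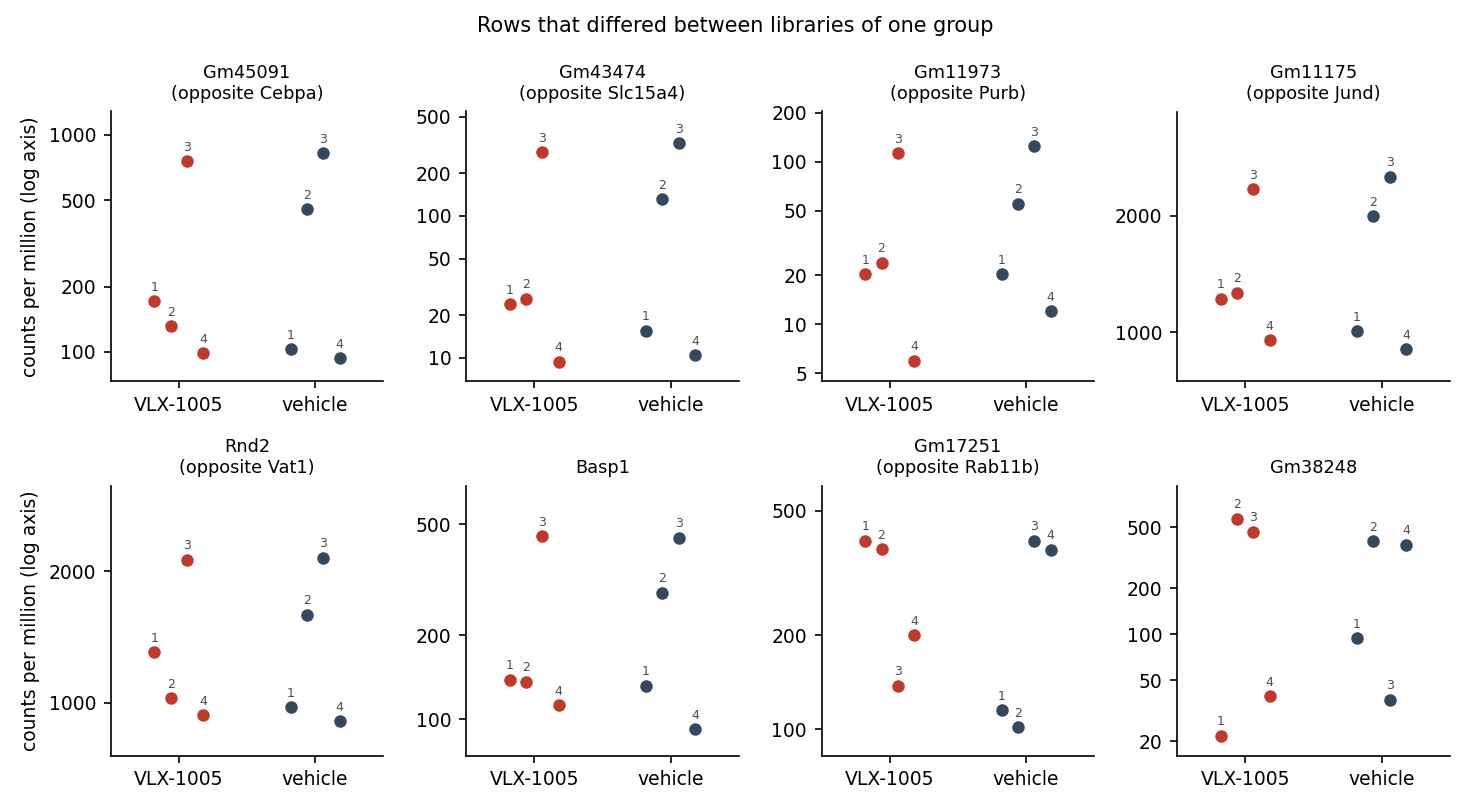
CPM (vertical log axes) in each M0 library, numbered 1 to 4, with VLX-1005 on the left in red and vehicle on the right in blue, for 8 rows whose counts differ between libraries of the same group. In the first 6 rows VLX-1005 3 and vehicle 3 are the highest of their groups and library 4 the lowest; Gm17251 and Gm38248 split the libraries in other ways.

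A few rows divided the libraries in other ways. Gm17251, opposite to Rab11b, a gene of recycling endosomes, had 536, 507, 180 and 235 counts with VLX-1005, against 141, 127, 527 and 469 with vehicle, so that libraries 1 and 2 were high in one group and libraries 3 and 4 in the other. Gm38248, with no opposite exon, had 29, 764, 614 and 46 counts with VLX-1005, against 116, 508, 49 and 481 with vehicle.

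Among the 1768 rows with at least 50 counts, a row was said to stand apart in a library when its log2 CPM lay over 0.5 above or below the mean of the other 3 libraries of its group. The rows above numbered 9, 16, 130 and 15 in VLX-1005 libraries 1 to 4, and 28, 69, 146 and 18 in vehicle libraries 1 to 4. The rows below numbered 41, 34, 19 and 92 in the VLX-1005 libraries and 115, 34, 11 and 105 in the vehicle libraries. VLX-1005 3 and vehicle 3 shared 106 of the rows above, which is 81.5% of the first list and 72.6% of the second, and VLX-1005 4 and vehicle 4 shared 64 of the rows below, which is 69.6% and 61.0%.

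The 106 rows that were high in both VLX-1005 3 and vehicle 3 had a median GC content of 71.1%, against 52.8% over all rows of at least 50 counts, taken over the part of the row that overlaps the opposite gene where there is one. Where a row had several opposite genes, the one sharing most exon positions was used. GC content over 60% was found in 87.7% of the 106 rows and in 22.9% of all. Of the 106 rows, 102 had an opposite exon, and the overlap lay at a median of 0.0673 of the length of the opposite gene's exons from its 5′ end, against 0.552 over all such rows. These are descriptions of rows chosen by their counts in these libraries, with no test.

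**Figure D5:**
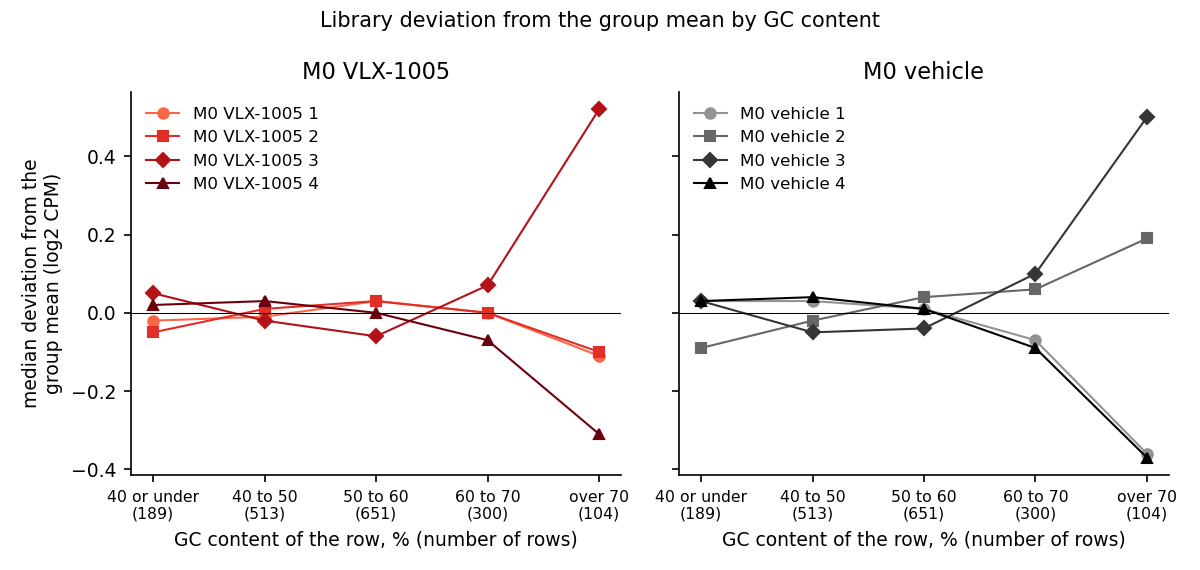
Median deviation of each M0 library from the mean of its group (vertical axis, log2 CPM) over rows of at least 50 counts, by GC content of the row (horizontal axis, with the number of rows), with VLX-1005 libraries on the left and vehicle libraries on the right. The libraries lie within 0.1 of 0 up to a GC content of 70% and spread from -0.37 to 0.52 above it.

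For the 104 rows with a GC content over 70%, the median deviation from the group mean was -0.11, -0.10, 0.52 and -0.31 on the log2 scale in VLX-1005 libraries 1 to 4, and -0.36, 0.19, 0.50 and -0.37 in vehicle libraries 1 to 4. For the 651 rows of 50% to 60% it was -0.06 to 0.03 in the VLX-1005 libraries and -0.04 to 0.04 in the vehicle libraries. The spread ratio passed 2.60 in 77.9% of the GC-rich rows with VLX-1005 and in 80.8% with vehicle, against 40.7% with VLX-1005 and 45.01% with vehicle in the rows of 50% to 60%. The median log2 fold change between treatments was -0.09 in the GC-rich rows and 0.00 in the others of 50% to 60%. Over 1757 rows, the Spearman correlation of GC content with the deviation was 0.14 in VLX-1005 3, 0.24 in vehicle 3 and 0.35 in vehicle 2. In the remaining libraries it was -0.35 to 0.04. Total counts did not set VLX-1005 3, vehicle 2 and vehicle 3 apart, with 1121145, 1077534 and 1128575. The part of GC content, of position on the gene or of any step of library preparation in the spread was not tested.

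The first principal component of the 8 libraries over the same 1768 rows held 58.1% of the variance. VLX-1005 libraries 1 to 4 lay at -2.98, -2.72, 10.5 and -7.79 on it, and vehicle libraries 1 to 4 at -6.86, 5.65, 11.6 and -7.39. Its group means were -0.75 for the VLX-1005 libraries and 0.75 for the vehicle libraries, which differ by -1.5 (p = 0.857 by a two-sided exact permutation test, 70 labellings, adjusted p = 1 over 3 components). Components 2 and 3 held 10.2% and 8.18% of the variance, with differences of 0.01 and 0.19 (exact p = 1 for both). Of 7 measures of library depth and composition, such as the share of counts in mitochondrial rows (1.49% ± 0.122 with VLX-1005 and 1.42% ± 0.127 with vehicle, SD, n = 4 each), none differed between treatments (exact permutation tests, adjusted p = 0.971 for each).

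Rows with a large spread between libraries had wide limits for VLX-1005. Of the 1768 rows with at least 50 counts, 24 had an interval that was not inside 2-fold, and 22 of these were among the 106 rows high in both VLX-1005 3 and vehicle 3. The median half-width of the interval was 0.55 on the log2 scale in the 106 rows (1.47-fold) and 0.25 in the other 1662 rows (1.19-fold), of which 1660 lay inside 2-fold. The 106 rows had been chosen for a library far above the others of its group, which itself widens the interval, so these values describe them and test nothing.

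Leaving out VLX-1005 3 moved the comparison more than leaving out any other M0 library. Without VLX-1005 3, 196 rows had an unadjusted p under 0.05, 54 higher and 142 lower with VLX-1005, and 62 were past 2-fold. Without vehicle 2 these counts were 116 and 30, and without vehicle 3 they were 108 and 26, against 103 and 27 with all 8 libraries. Of the 106 rows high in both VLX-1005 3 and vehicle 3, 44 were among the 196. In that fit 105 of the 106 had a log2 fold change below 0, with a median of -0.43. Their median was 0.19 without vehicle 3, and 0.20 without VLX-1005 3, vehicle 2 and vehicle 3 together. The count at an adjusted p under 0.05 was 0 without VLX-1005 3 (smallest adjusted p = 0.673, edgeR) and 0 without VLX-1005 3, vehicle 2 and vehicle 3 together, where 149 rows had an unadjusted p under 0.05 and 44 were past 2-fold.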

How the data were processed

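RNA of 16 BMDM libraries was sequenced as strand-specific polyA libraries. The authors trimmed reads with Trimmomatic, aligned them in Galaxy with HISAT2, using mm10, and obtained counts from HTSeq-count. The table deposited by the authors holds these raw counts, unnormalized, for each gene. Versions, annotation release and strand setting are not given in the sources used here. No row named no gene, and 0 columns lacked a sample. Of 48440 row identifiers, 48058 were in GENCODE release 21 for mouse, which gave symbols and coordinates, and 30671 rows were 0 in all 16 libraries.

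Rows were filtered with filterByExpr of edgeR 4.0.16 (3453 kept), normalized by TMM and tested with the quasi-likelihood test in R 4.3.3, all 16 libraries in a single model, so that M0 and M1 shared the estimate of spread. Intervals of 95% were the unshrunk coefficient ± its quasi-likelihood standard error times the t quantile. In 52 rows with 0 counts in an M0 group they could not be computed, and these count as not inside. Printed log2 fold changes are those of edgeR. Log2 CPM used a prior count of 2. GC content and sequences came from the GENCODE transcripts. Single values were compared by exact permutation tests. Scripts were checked on simulated counts. Counting intervals cover counting error only. Alternatives included DESeq2 1.42.0 and limma 3.58.1 (voom). Plots used matplotlib 3.10.9 (Python 3.11.15).

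The comparison, the gene lists and the rules were chosen with earlier results of these data known. Named rows were the 5 of smallest p in each direction with at least 10 counts per library, the 5 largest changes in each direction past 2-fold with at least 3 counts in a group mean, the 8 most abundant, those of largest spread, those farthest from the rest of their group in each library, the 2 most abundant of each list, rows that passed under an alternative, and genes the study names. Some other list members with an unadjusted p under 0.05, and the Pltp, Cd163, Csf1r, Gm43621 and Gm26542 rows, were named after their values were seen. Lgals9, Atp6v1c2, Hk1, Trmt112 and Rpl18, list members under the same threshold, were counted but not described. A row that the rule selects, and a sequence, are not reported here.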

Additional observations from a re-analysis of the deposited data

Results flagged for a closer look

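Rows named in the text were checked for a library that lies far from the other 3 of its group (by the share of the group's range that its gap to the nearest library takes up, against Dixon's 95% critical value). Chance flags about 1 in 20 groups. Of 174 groups checked, 17 were flagged, 10 of them in M0 VLX-1005 3. In that library the CPM was 756 for Gm45091 (opposite Cebpa), 538 for Cnbd2 (opposite Scand1), 283 for Gm43474 (opposite Slc15a4), 607 for 1810049J17Rik (opposite Golph3), 453 for Basp1, 192 for Gm9887 (opposite Arf6), 122 for Gm26571 (opposite Riox1), 115 for Pitpna, 112 for Gm11973 (opposite Purb) and 144 for Gm9768 (opposite Klhl21), each above the other 3 VLX-1005 libraries. Most of these rows had been chosen for their spread.

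In M0 VLX-1005 1, Tap1 was high at 9.74 CPM. In M0 vehicle 1, Gm10252 (opposite Ftl1) was high at 113600 CPM and Ptms at 62.7 CPM. In M0 vehicle 3, E230013L22Rik (opposite Rab20) was high at 300.4 CPM and Lpl, lipoprotein lipase, at 44.1 CPM. In M0 vehicle 4, Dlgap4 was high at 2.40 CPM and Gm16185 at 85.7 CPM.

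Shisa5 moved in opposite directions in the 2 states. Its log2 fold change was 0.86 in M0, higher in 4 of 4 VLX-1005 libraries than in any vehicle library, and -0.57 in M1, lower in 4 of 4. The test of the difference gave an unadjusted p of 0.00101 and did not pass the adjustment over all rows (adjusted p = 1, edgeR).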

How the results depend on the processing

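No row had an adjusted p under 0.05 with DESeq2, limma-voom, RLE or upper quartile normalization, a mean of at least 50 counts, rows free of an opposite-strand gene, the M0 libraries alone, or any M0 library left out, or VLX-1005 3, vehicle 2 and vehicle 3 left out together. With no low-count filter 1 row passed, CT010467.1 (571 rows at an unadjusted p under 0.05, 481 past 2-fold, 15.1% inside 2-fold, median absolute log2 fold change 0.52). With a mean of at least 50 counts 44 rows had an unadjusted p under 0.05, 0 were past 2-fold and the median absolute log2 fold change was 0.0677, and among 537 rows free of an opposite-strand gene the 4 values were 24, 13, 44.9% and 0.22. Rows past 2-fold numbered 3 with the M0 libraries alone, 3 with a GC offset added, 14 with limma-voom and 44 without these 3 libraries. Leaving out each library gave 83 to 196 rows at an unadjusted p under 0.05 and 24 to 62 past 2-fold, the highest without VLX-1005 3, 70.03% to 71.97% of rows inside 2-fold, and a median absolute log2 fold change of 0.12 to 0.13. The share of rows over the counting limit was 26.01% to 32.65% in VLX-1005 and 29.9% to 35.2% in vehicle with 1 library left out, and 16.6% in vehicle without libraries 2 and 3. The difference between M0 and M1 had 0 calls in each fit that could test it. The causes were not tested.

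The libraries share only replicate numbers. Deviations of same-numbered libraries correlated at 0.30, 0.04, 0.74 and 0.60, and VLX-1005 2 correlated best with vehicle 4 (0.26). With the replicate block, all 16 libraries gave 0 calls and 109 rows at an unadjusted p under 0.05. The block on the M0 libraries alone gave 3 calls (among them Gm10602, adjusted p = 0.00281, and Ctsa, 0.0425, edgeR), 162 rows at an unadjusted p under 0.05 and 3 past 2-fold, and with a GC offset 1 call (Gm10602, adjusted p = 0.00104, edgeR), 177 and 3. The fits of M0 alone with a block or an offset and vehicle without 2 libraries were chosen after seeing the data. Over other alternatives the adjusted p of Gm10602 was 0.22 to 1. The depth of 996126 to 1158095 counts per library limits rows under 50 counts most.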
